A study of Mus musculus with 2 samples.

Results

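The contractile smooth muscle genes described here are 10 genes chosen by name, Acta2, Tagln, Myh11, Cnn1, Actg2, Mylk, Myl9, Lmod1, Des and Tpm2, of 27998 genes counted in single lung cells. The rule is a list of names and uses no measured value, and all 10 were found by symbol in both libraries. Lungs of C57BL/6 mice were harvested at postnatal day 14 (2 weeks) after rearing from birth in room air (21% oxygen) or in hyperoxia (80% oxygen), an exposure used to model bronchopulmonary dysplasia. In each group the cells of 8 mice were pooled into 1 library, so the groups were compared as 1 library against 1, without a replicate and without a test. All intervals below are 95% intervals for counting error only, and those of levels and ratios leave out the spread between cells of a type. The question was how much of each contractile mRNA was held by myofibroblasts, smooth muscle cells and pericytes, and how the levels of the same cells differed between the libraries.

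Smooth muscle contracts when calcium activates myosin light chain kinase, which phosphorylates the regulatory light chain of myosin and lets the myosin heavy chain pull on actin filaments. Thin-filament proteins tune that pull, and intermediate filaments carry the force across the cell. In the lung these proteins are known from airway and vascular smooth muscle, from the pericytes that wrap capillaries, and from the alveolar myofibroblasts that form septal tips while alveoli develop. Many of the genes are controlled by serum response factor with its partner myocardin, which bind a short DNA element called the CArG box.

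The stretch from 250 bases before to 50 bases after the RefSeq start site (assembly GRCm38.p6) was given for 7 of the 10 genes, and Tagln, Myh11 and Actg2 had no entry. An exact CArG box was found in 1 of the 7, Myl9, and in 1.63% of all 32851 such stretches. With at most 1 letter off, it was found in Acta2, Myl9 and Lmod1, and in 21.1% of all stretches. The element reads the same on both strands. These 3 stretches are shown because the genes differ in what was measured below, Acta2 and Lmod1 being higher and Myl9 lower in pericyte-like cells of the hyperoxia library, although Acta2 turned lower with double the expected share of doublets removed. They are written 5′ to 3′ on the strand of the gene, and capitals mark the CArG boxes, exact or with 1 letter off.
Acta2, chr19:34255324-34255623, minus strand: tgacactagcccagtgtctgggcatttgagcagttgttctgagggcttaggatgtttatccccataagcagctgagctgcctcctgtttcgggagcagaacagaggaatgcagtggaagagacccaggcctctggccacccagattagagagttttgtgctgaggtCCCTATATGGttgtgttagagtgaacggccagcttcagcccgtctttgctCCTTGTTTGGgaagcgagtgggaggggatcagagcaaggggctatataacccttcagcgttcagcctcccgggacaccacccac
Myl9, chr2:156775214-156775513, plus strand: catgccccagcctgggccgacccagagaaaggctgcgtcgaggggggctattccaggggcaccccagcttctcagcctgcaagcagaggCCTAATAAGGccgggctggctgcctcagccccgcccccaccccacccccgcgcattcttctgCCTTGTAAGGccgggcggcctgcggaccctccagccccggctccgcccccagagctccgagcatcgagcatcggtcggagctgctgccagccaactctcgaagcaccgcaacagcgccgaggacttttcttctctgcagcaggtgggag
Lmod1, chr1:135324563-135324862, plus strand: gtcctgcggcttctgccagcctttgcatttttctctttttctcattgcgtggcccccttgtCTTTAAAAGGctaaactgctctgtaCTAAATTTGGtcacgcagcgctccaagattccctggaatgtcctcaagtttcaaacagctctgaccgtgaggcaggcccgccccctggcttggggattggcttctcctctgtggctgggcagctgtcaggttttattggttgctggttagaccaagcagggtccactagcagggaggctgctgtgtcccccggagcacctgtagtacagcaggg
In Acta2 the near matches began 84 and 34 bases before the start site, in Myl9 the exact match 161 bases and a near match 99 bases before it, and in Lmod1 2 near matches 189 and 164 bases before it. The letters CATTCC, the MCAT element bound by TEAD factors, were found on either strand in Acta2, Mylk and Lmod1 and in 14.7% of all stretches. No CArG box within 1 letter was in the stretches of Cnn1, Mylk, Des and Tpm2. The Mylk stretch (chr16:34784700-34784999) lies inside the span of the gene given below (chr16:34745210-35002420), so it does not cover the outermost start of the gene. These are matches of letters in a short window, and the data do not bear on whether a factor binds there.

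After filters on detected genes, mitochondrial UMIs and doublets, 3680 room air cells and 10472 hyperoxia cells remained, with a median of 8067 and 7241 UMIs (counted molecules) per cell. Cells were clustered without the 10 genes and 24 other contractile genes, and the clusters were named from markers that included none of the 10. The room air and the hyperoxia library held 412 and 776 myofibroblast-like cells, 42 and 191 smooth muscle-like cells, and 128 and 229 pericyte-like cells. Of all stromal cells these were 50% (46.5 to 53.5%) and 31.1% (29.2 to 32.9%) for myofibroblast-like cells, 5.10% (3.70 to 6.83%) and 7.64% (6.63 to 8.76%) for smooth muscle-like cells, and 15.5% (13.1 to 18.2%) and 9.16% (8.06 to 10.4%) for pericyte-like cells. The summed level of the 14 myofibroblast markers, such as Pdgfra and Tgfbi, was 10991 and 10313 CPM (UMIs of a gene per 1e6 UMIs) in myofibroblast-like cells and at most 3397 CPM in the other 2 types. The 14 smooth muscle markers summed to 2129 and 2389 CPM in smooth muscle-like cells and at most 394 CPM in the other 2 types, and the 15 pericyte markers, such as Cspg4 and Higd1b, to 27405 and 19525 CPM in pericyte-like cells and at most 3219 CPM in the other 2 types. Pln, a gene of the smooth muscle list, was at 0 in the pericyte-like cells of both libraries, but it was also at 0 in the larger of the 2 smooth muscle-like clusters in room air (11 UMIs in hyperoxia), so it did not set these types apart. The libraries shared 17 cell barcodes, which were carried by 29 kept cells, 8 of them in these 3 types.

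Free RNA was gauged in B-like cells, which should hold no contractile mRNA. There the 10 genes summed to 59.8 CPM in room air (129 UMIs in 412 cells) and 120 CPM in hyperoxia (551 UMIs in 1362 cells), against at least 4751 CPM in the 3 types. This background was thus also higher in the hyperoxia library, by 1.01 on the log2 scale (0.73 to 1.30). Acta2 stood at 11.1 and 27.1 CPM in B-like cells, Cnn1 at 0.463 and 2.62 CPM, and Lmod1 at 0 UMIs and 1 UMI. In endothelial-like cells the 10 genes summed to 238 and 268 CPM, of which Mylk made up 123 and 203 CPM. Each of the other genes was lower in hyperoxia in these cells, though the intervals of Cnn1 and Actg2 included 0. In all 3 types every gene lay above its B-like level in the same library.

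Levels below are CPM, summed over the cells of a type in a library, and where 2 values stand together the first is room air and the second hyperoxia. Smooth muscle-like cells had the highest level of each of the 10 genes in both libraries, among 10 named cell types. The ratio to myofibroblast-like cells in room air ran from 2.71-fold for Mylk and 3.03-fold for Des to 21.6-fold for Lmod1 and 143-fold for Cnn1. In hyperoxia it ran from 1.75-fold for Des to 26.7-fold for Cnn1, and it was smaller than in room air for 9 of the 10 genes, Mylk being the exception at 3.23-fold. Second place was held by pericyte-like cells for Acta2, Myh11, Lmod1, Myl9 and Tpm2 in both libraries and by myofibroblast-like cells for Tagln and Actg2 in both. The intervals of those 2 types overlapped for Acta2, Actg2 and Mylk in room air and for Actg2 and Cnn1 in hyperoxia. For Mylk, second place belonged to Tcf21 fibroblast-like cells, with 1070 and 942 CPM. Des and Cnn1 changed places. For Des, pericyte-like cells stood above myofibroblast-like cells in room air (417 against 336 CPM) and below them in hyperoxia (529 against 694 CPM). For Cnn1 they stood above in room air, with adventitial fibroblast-like cells (25.6 CPM, 23 UMIs) in between, and within overlapping intervals in hyperoxia. Lmod1 of myofibroblast-like and adventitial fibroblast-like cells also overlapped in room air.

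**Figure D1:**
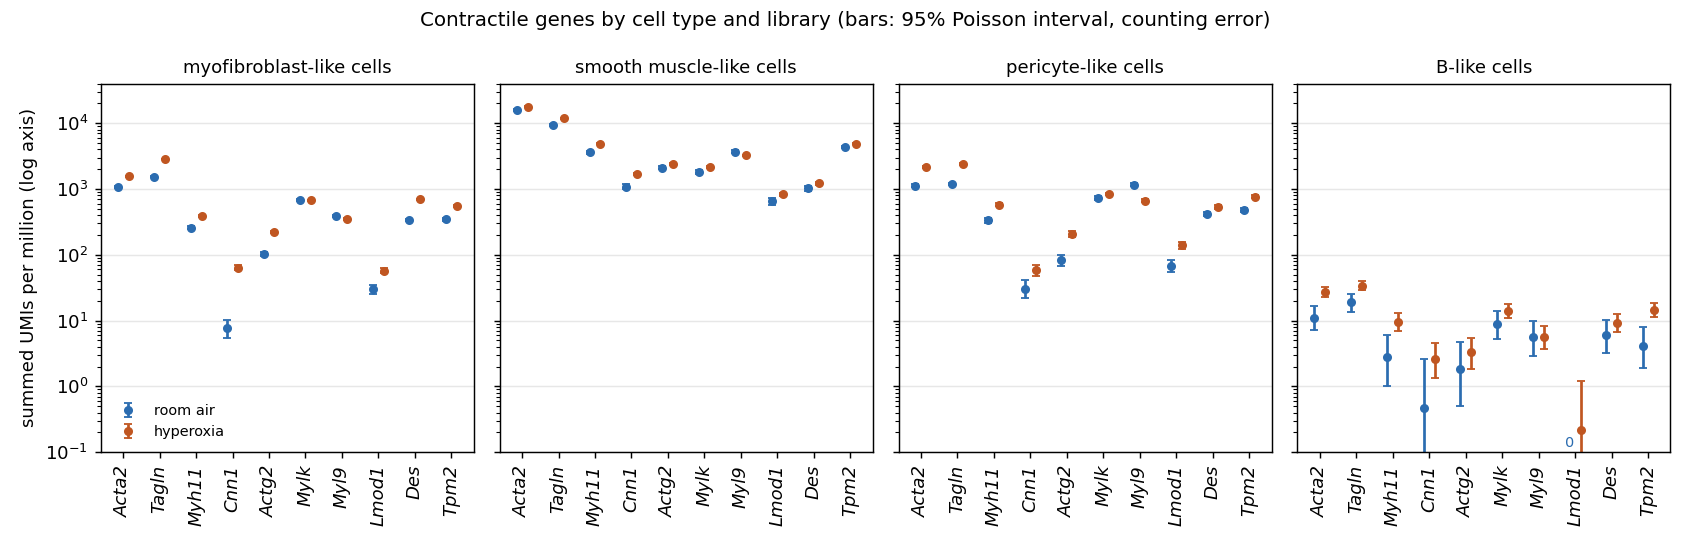
Levels of the 10 genes in myofibroblast-like, smooth muscle-like, pericyte-like and B-like cells, as CPM on a log axis, with room air in blue, hyperoxia in orange and bars for the 95% Poisson interval. Smooth muscle-like cells lie between 646 and 17921 CPM for every gene, and B-like cells, the background of free RNA, lie at or below 34.0 CPM.

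The smooth muscle actins were higher in hyperoxia in all 3 types, but in pericyte-like cells both turned lower with double the expected share of doublets removed (Acta2 -0.31 and Actg2 -0.70 on the log2 scale). Acta2, the alpha actin of vascular smooth muscle and myofibroblasts (chr19:34241090-34255590), stood at 1077 and 1573 CPM in myofibroblast-like cells, a log2 ratio of 0.55 (0.50 to 0.59). In smooth muscle-like cells it stood at 15937 and 17921 CPM, 0.17 on the log2 scale (0.14 to 0.20). In pericyte-like cells it stood at 1128 and 2180 CPM, 0.95 (0.86 to 1.04). Actg2, the gamma actin of visceral smooth muscle (chr6:83512905-83536265), stood at 103 and 222 CPM in myofibroblast-like cells, a log2 ratio of 1.11 (0.98 to 1.25), and at 2103 and 2397 CPM in smooth muscle-like cells, 0.19 (0.10 to 0.28). In pericyte-like cells it stood at 82.1 and 206 CPM, 1.33 (1.02 to 1.65). Of the 107 Actg2 UMIs of pericyte-like cells in room air, 22 came from a single cell.

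Among the proteins that bind the thin filament, Cnn1 showed the widest difference of all 10 genes. Cnn1 encodes calponin, which restrains actin-activated myosin (chr9:22099216-22109630). In myofibroblast-like cells it stood at 7.62 CPM in room air (42 UMIs, 23 of 412 cells) and 64.0 CPM in hyperoxia (615 UMIs, 167 of 776 cells), an 8.39-fold ratio (6.14 to 11.8) and a log2 ratio of 3.07 (2.62 to 3.56). These molecules were uneven between cells, since the top 5% of hyperoxia cells held 63.3% of them. The ratio also moved with the doublet filter, to 1.93 on the log2 scale without doublet removal and to 0.52 with double the expected share removed. In smooth muscle-like cells Cnn1 stood at 1088 and 1707 CPM, a log2 ratio of 0.65 (0.52 to 0.78), the widest of that type. In pericyte-like cells it stood at 30.7 CPM (40 UMIs, 25 of them from 1 cell) and 57.8 CPM (115 UMIs), a log2 ratio of 0.91 (0.38 to 1.47) that turned to -1.70 (-4.25 to 0.36) without 1 cluster, described below, and to -2.41 with double the expected share of doublets removed.

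Tagln encodes transgelin, an actin-bundling protein (chr9:45929619-45936058). It stood at 1531 and 2866 CPM in myofibroblast-like cells, 1.87-fold (1.83 to 1.92) and 0.90 on the log2 scale. In smooth muscle-like cells it stood at 9425 and 11908 CPM, 1.26-fold (1.23 to 1.30), and in pericyte-like cells at 1194 and 2384 CPM, a log2 ratio of 0.997 (0.91 to 1.08), just short of 2-fold. Lmod1, leiomodin, which nucleates actin filaments in smooth muscle (chr1:135324807-135368065), stood at 29.9 and 57.4 CPM in myofibroblast-like cells, 646 and 830 CPM in smooth muscle-like cells, and 67.5 and 140 CPM in pericyte-like cells. Its log2 ratios were 0.94 (0.69 to 1.2), 0.36 (0.19 to 0.53) and 1.05 (0.70 to 1.42). Tpm2, the beta tropomyosin that lies along the actin filament (chr4:43514711-43523765), stood at 347 and 557 CPM, 4321 and 4914 CPM, and 482 and 764 CPM in the same order of types. Its log2 ratios were 0.68 (0.61 to 0.76), 0.19 (0.12 to 0.25) and 0.66 (0.53 to 0.80). All 4 thin-filament genes were higher in hyperoxia in myofibroblast-like and smooth muscle-like cells under every alternative run. In pericyte-like cells Lmod1 stayed higher too, while with double the expected share of doublets removed Tagln turned to -0.13 and Tpm2 to -0.20.

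The myosin genes did not share a direction. Myh11, the smooth muscle myosin heavy chain (chr16:14194535-14291372), stood at 259 and 387 CPM in myofibroblast-like cells, a log2 ratio of 0.58 (0.49 to 0.67). It stood at 3610 and 4875 CPM in smooth muscle-like cells, 0.43 (0.36 to 0.50), and at 335 and 580 CPM in pericyte-like cells, 0.79 (0.63 to 0.95). Myl9, the regulatory light chain that the kinase phosphorylates (chr2:156775420-156781658), was lower in hyperoxia in all 3 types. It stood at 386 and 352 CPM in myofibroblast-like cells (log2 ratio -0.13, -0.21 to -0.05), at 3707 and 3247 CPM in smooth muscle-like cells (-0.19, -0.26 to -0.12), and at 1154 and 661 CPM in pericyte-like cells (-0.80, -0.91 to -0.70). In pericyte-like cells it stayed lower under every alternative processing tried, between -1.48 and -0.53, whereas in the other 2 types some alternatives turned the sign, as given in the closing part. Myl9 was also lower in Tcf21 fibroblast-like (-1.57), adventitial fibroblast-like (-0.73), epithelial-like (-1.48), endothelial-like (-0.91) and myeloid-like cells (-0.79). Epithelial-like, endothelial-like and myeloid-like cells held at most 26.3 CPM of it. In B-like and other lymphocyte-like cells the intervals included 0. Mylk, the myosin light chain kinase (chr16:34745210-35002420), differed least of the 10 genes in myofibroblast-like cells, with 674 and 671 CPM, a log2 ratio of -0.01 (-0.07 to 0.05). It stood at 1825 and 2163 CPM in smooth muscle-like cells, 0.25 (0.15 to 0.35), and at 734 and 838 CPM in pericyte-like cells, 0.19 (0.08 to 0.31).

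Des encodes desmin, the intermediate filament protein of muscle (chr1:75360329-75368579). In myofibroblast-like cells it stood at 336 CPM in room air (1854 UMIs) and 694 CPM in hyperoxia (6673 UMIs), 2.06-fold (1.96 to 2.17). In smooth muscle-like cells it stood at 1020 and 1214 CPM, a log2 ratio of 0.25 (0.12 to 0.39), and in pericyte-like cells at 417 and 529 CPM, 0.34 (0.19 to 0.50). Under all alternatives the myofibroblast-like ratio of Des stayed between 0.92 and 1.15 on the log2 scale, a narrower range than that of Cnn1, from 0.52 to 3.61.

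Counted over the 10 genes, 8 were higher in hyperoxia in myofibroblast-like cells, 9 in smooth muscle-like cells and 9 in pericyte-like cells, where 54.2%, 50.1% and 46.6% of all genes tested were higher. At least 2-fold higher were 3 genes in myofibroblast-like cells, Cnn1, Actg2 and Des, where 1.63% of the 8387 genes with a mean of at least 10 CPM passed the same fold. None of the 10 passed it in smooth muscle-like cells, where 4.96% of 8246 genes did, and 2 passed it in pericyte-like cells, Actg2 and Lmod1, where 3.41% of 8568 genes did. None was at least 2-fold lower in any of the 3 types, where 1.44%, 3.93% and 3.57% of genes were. At 1.5-fold the counts of higher genes were 6 (background 5.53%), 1 (14%) and 7 (9.45%). Myl9 in pericyte-like cells was the 1 gene at least 1.5-fold lower (background 11.7%), with none in myofibroblast-like (5.57%) and smooth muscle-like cells (14.2%). All 10 genes passed the limit on mean level in the 3 types, so no member was lost from these counts. The median log2 ratio of the 10 genes was 0.79, 0.25 and 0.85, and that of all genes tested 0.03, 0.00 and -0.03.

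The 10 genes summed to 4751 and 7442 CPM in myofibroblast-like cells, a log2 ratio of 0.65 (0.63 to 0.67). They summed to 43681 and 51175 CPM in smooth muscle-like cells, 0.23 (0.21 to 0.25), and to 5625 and 8340 CPM in pericyte-like cells, 0.57 (0.53 to 0.61). With double the expected share of doublets removed the same ratios were 0.42, 0.64 and -0.32, and none of the 10 genes was then 2-fold apart in myofibroblast-like cells. With each library clustered on its own they were 0.77, 0.61 and 1.22. The direction in myofibroblast-like and smooth muscle-like cells thus held under these alternatives, and that in pericyte-like cells did not. Beside these ratios, the summed smooth muscle markers were 317 and 250 CPM in myofibroblast-like cells, with 2 of 14 at 0 in room air and none in hyperoxia, and 394 and 393 CPM in pericyte-like cells, with 3 and 2 of 14 at 0. Myofibroblast markers in pericyte-like cells summed to 1694 and 2109 CPM, with none of 14 at 0, and their part in the result was not tested. Pericyte markers in myofibroblast-like cells summed to 1129 and 2035 CPM, with none of 15 at 0. In smooth muscle-like cells the pericyte markers summed to 2947 and 3219 CPM (3 and 0 of 15 at 0), the epithelial markers to 469 and 928 CPM (5 and 1 of 11), the myeloid markers to 75.6 and 206 CPM (2 and 1 of 12) and the endothelial markers to 45.3 and 119 CPM (none of 8). Epithelial markers were also higher in hyperoxia in myofibroblast-like (529 and 754 CPM) and pericyte-like cells (668 and 863 CPM). In cells without UMIs of 10 genes of other lineages the summed log2 ratios were 0.73, 0.25 and 0.41. Mitochondrial UMIs were 2.94% and 3.25% in myofibroblast-like, 3.49% and 3.72% in smooth muscle-like and 3.41% and 3.55% in pericyte-like cells.

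**Figure D2:**
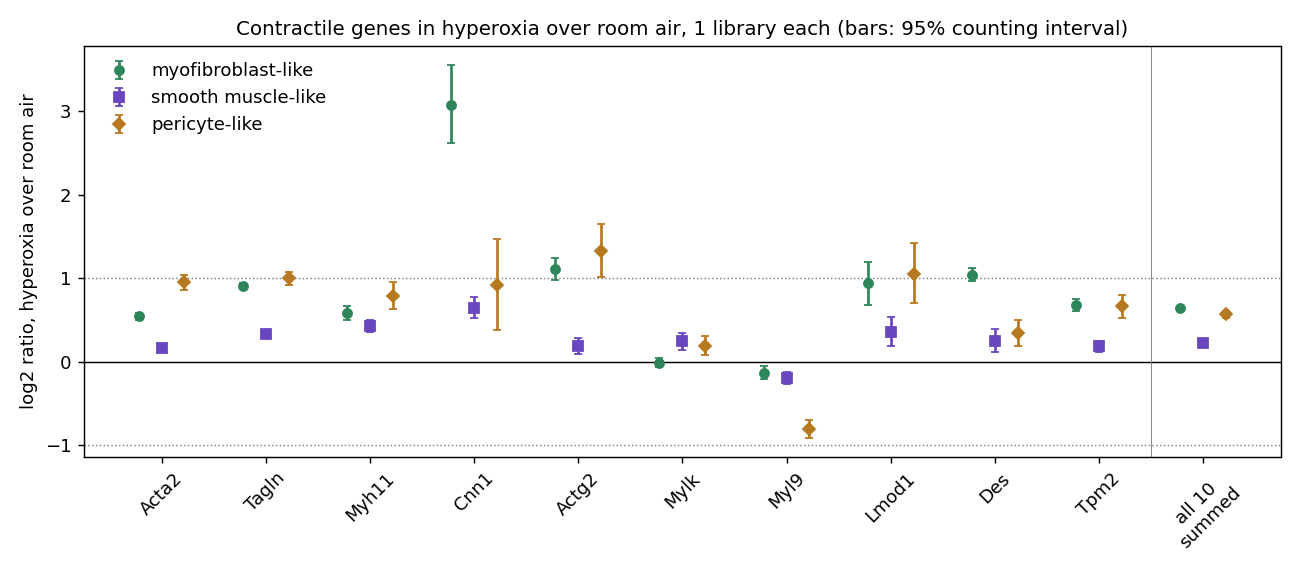
Log2 ratio of hyperoxia over room air for each of the 10 genes and for their sum in myofibroblast-like (circles), smooth muscle-like (squares) and pericyte-like cells (diamonds), with bars for the 95% counting interval and dotted lines at 2-fold. Cnn1 in myofibroblast-like cells stands highest at 3.07, and Myl9 in pericyte-like cells lowest at -0.80.

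The clusters inside each type did not take equal parts of the libraries, so the type values above mix different clusters in the 2 libraries. Of the pericyte-like cells, cluster 1 held 18 room air and 163 hyperoxia cells and cluster 2 held 93 and 4, both with high Higd1b (724 to 1952 CPM). Cluster 3 held 17 and 62 cells and was set apart from clusters 1 and 2 by Ntrk3 (400 CPM in room air, 186 CPM in hyperoxia) and by low Higd1b (137 and 167 CPM). Ntrk3 is on the smooth muscle marker list but was not particular to that type. It stood at 404 and 409 CPM in the larger smooth muscle-like cluster and 53.1 and 4.05 CPM in the smaller. In myofibroblast-like cluster 1 it stood at 272 and 184 CPM. The 10 genes summed to 13707 and 15288 CPM in cluster 3, a log2 ratio of 0.16 (0.10 to 0.22). They summed to 3588 and 5019 CPM in cluster 1, 0.48 (0.37 to 0.60), and to 4292 and 4426 CPM in cluster 2, 0.04 (-0.20 to 0.28). Acta2 stood at 4208 and 4605 CPM in cluster 3, against 396 and 1021 CPM in cluster 1. Cluster 3 made up 13.3% of the pericyte-like cells in room air and 27.1% in hyperoxia.

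Without cluster 3 the summed log2 ratio of pericyte-like cells was 0.26 (0.21 to 0.31) in place of 0.57. Acta2 was then 0.82, Tagln 0.73, Myh11 0.62, Actg2 1.47 and Lmod1 1.09 on the log2 scale, all still higher in hyperoxia. Myl9 was -1.15 and Cnn1 -1.70, and 4 genes were then 2-fold apart, 2 in each direction. Of these Cnn1 rests on 8 UMIs in room air, all in cluster 2, and 3 in hyperoxia, all in cluster 1, below the limit of 10 CPM used for the other counts, and its interval included 0, so 3 genes remain without it. Cnn1 in cluster 1 was at 0 UMIs in room air and 2.29 CPM in hyperoxia, below its B-like level in hyperoxia (2.62 CPM), so nearly all Cnn1 of pericyte-like cells in hyperoxia lay in cluster 3, at 174 CPM.

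Smooth muscle-like cells fell into a cluster with Ntrk3 and Itga8 (35 and 166 cells) and a smaller one with Hhip, Chrm2 and Lgr6 (7 and 25 cells). Chrm2, a muscarinic acetylcholine receptor, stood at 839 and 522 CPM in the smaller cluster and at 20.7 and 23.6 CPM in the larger. Cnn1 stood at 2294 and 4196 CPM in the smaller cluster and 827 and 1390 CPM in the larger, Mylk at 3792 and 4459 CPM against 1399 and 1871 CPM, and Des at 2294 and 3391 CPM against 745 and 938 CPM. Acta2 went the other way, with 13319 and 11888 CPM in the smaller cluster and 16503 and 18688 CPM in the larger. Between libraries Cnn1 differed by 0.87 and 0.75 on the log2 scale in the smaller and the larger cluster, and Myl9 by -0.40 and -0.16, so both kept their sign in each cluster, while Acta2 was lower in hyperoxia in the smaller cluster (-0.16) and higher in the larger (0.18). The smaller cluster rests on 7 cells in room air.

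Of the myofibroblast-like cells, clusters 1 (125 and 255 cells) and 3 (62 and 197 cells) held cells of both libraries, while cluster 2 (15 and 318 cells) was mostly hyperoxia and cluster 4 (210 and 6 cells) mostly room air. In cluster 1 the 10 genes summed to 4864 and 6177 CPM, a log2 ratio of 0.34, and in cluster 3, set apart by Grem1 (299 and 403 CPM, at most 92.2 CPM in the other clusters), to 4494 and 8686 CPM, 0.95. Within cluster 3 Tagln stood at 1412 and 3432 CPM, Des at 274 and 711 CPM, and Cnn1 at 26.0 and 167 CPM. Within cluster 1 the same genes stood at 1443 and 2163 CPM, 337 and 619 CPM, and 2.39 and 14.2 CPM. Tagln and Des were higher in hyperoxia within clusters 1 and 3. In cluster 2 the 10 genes had a summed log2 ratio of -0.06 (-0.20 to 0.08) and Tagln one of 0.29 (0.05 to 0.54), with 15 room air cells behind them. Des (2.34, 1.35 to 3.55) and Myh11 (1.01, 0.13 to 2.07) were also higher in hyperoxia there. Acta2 (-0.89, -1.12 to -0.66), Actg2 (-1.05, -1.62 to -0.41) and Cnn1 (-1.58, -2.66 to -0.24, 7 UMIs in room air) were lower. The intervals of Mylk, Myl9, Lmod1 and Tpm2 included 0. In cluster 4, with 6 hyperoxia cells, the sum was lower in hyperoxia at -0.52 (-0.75 to -0.30). Tagln at -0.73 (-1.16 to -0.33) and Acta2 at -1.05 (-1.67 to -0.50) were lower there too. Without cluster 3 the summed ratio of the type was 0.55 (0.53 to 0.57).

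**Figure D3:**
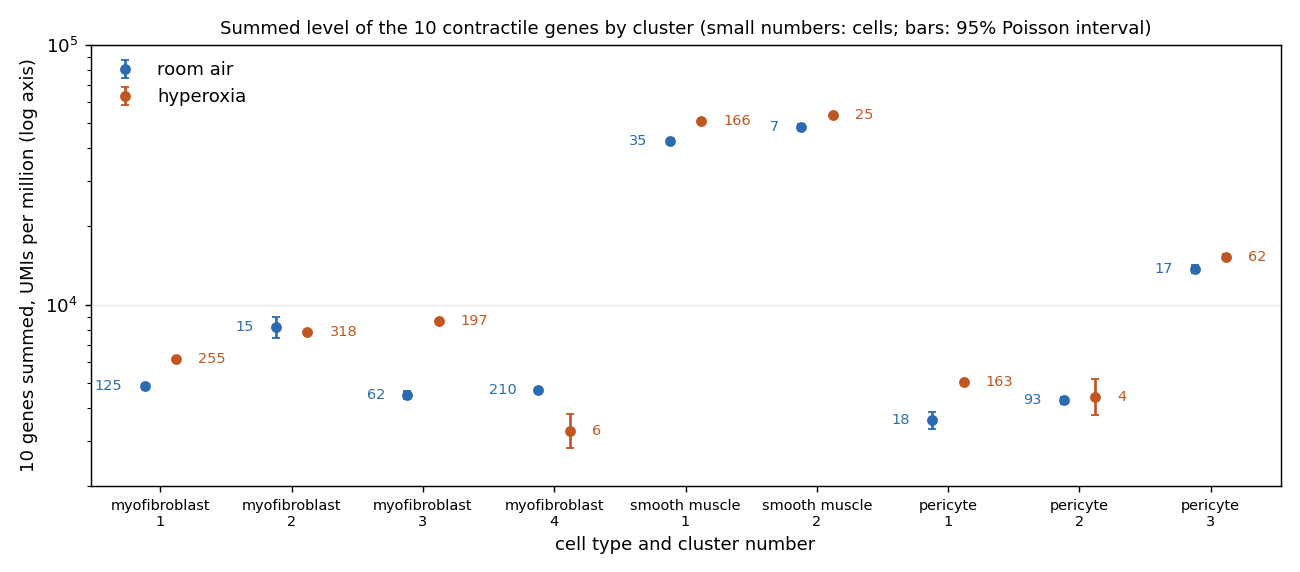
Summed level of the 10 genes, as CPM on a log axis, in each cluster of the 3 cell types, with room air in blue, hyperoxia in orange, bars for the 95% Poisson interval and the number of cells beside each point. Pericyte-like cluster 3 lies at 13707 and 15288 CPM, between the smooth muscle-like clusters (42697 to 53395 CPM) and the other pericyte-like clusters (3588 to 5019 CPM).

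Levels per cell were compared after thinning each cell to 2000 UMIs, since hyperoxia cells were shallower (a median of 12081 against 14090 UMIs in myofibroblast-like cells). Cells under that depth were left out, 5 and 11 myofibroblast-like, 2 and 0 smooth muscle-like, and 9 and 28 pericyte-like. Tpm2 was then detected in 44.0% (39.1 to 49.0%) and 59.1% (55.5 to 62.6%) of myofibroblast-like cells, Des in 43.5% (38.6 to 48.5%) and 62.1% (58.6 to 65.5%), and Myh11 in 32.7% (28.1 to 37.5%) and 43.5% (40.0 to 47.1%). Without thinning the shares were 86.7% and 89.6% for Tpm2, 81.6% and 93.0% for Des, and 82.0% and 83.1% for Myh11. Actg2 was detected in 16% and 26.9% of thinned cells and Cnn1 in 0.983% and 7.45%. For the other genes the intervals overlapped, with Acta2 in 64.1% and 71.0%, Tagln in 80.1% and 85.6%, and Lmod1 in 6.14% and 8.76%. Mylk (70.8% and 69.8%) and Myl9 (47.7% and 41.6%) were not higher in hyperoxia. Which intervals overlapped depended on the depth. Thinned to 1000 UMIs, Acta2 was detected in 44.9% (40.0 to 49.8%) and 56.8% (53.3 to 60.4%), with intervals apart. So was Tagln, in 57.3% (52.3 to 62.1%) and 76.0% (72.8 to 78.9%). The intervals of Tpm2 (30.3% and 36.4%) and Myh11 (19.7% and 25.8%) then overlapped, while those of Des, Actg2 and Cnn1 stayed apart. B-like cells thinned to 2000 UMIs had Tpm2 in 1.08% and 2.59%, Des in 0.269% and 1.92%, and Cnn1 in 0 of 372 cells, which allows a share of up to 0.806%, and 0.586%.

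In thinned pericyte-like cells Myl9 was detected in 77.3% (68.7 to 84.5%) and 54.7% (47.6 to 61.7%), while Myh11 went from 35.3% (26.8 to 44.6%) to 54.7% (47.6 to 61.7%). Lmod1 was detected in 5.04% (1.87 to 10.7%) and 22.4% (16.8 to 28.8%), and Actg2 in 5.04% and 19.4%. Thinned to 1000 UMIs, the intervals of Myl9 (55.6% and 42.1%) and Lmod1 (4.76% and 11.2%) overlapped. Those of Myh11 (23.0% and 39.7%) and Actg2 (4.76% and 15.4%) stayed apart. Without thinning Myl9 was detected in 94.5% and 76.0%, Myh11 in 75% and 78.6%, and Lmod1 in 27.3% and 45.4% of cells. Unthinned shares of Acta2 (75% and 71.6%), Tagln (89.1% and 83.0%), Des (91.4% and 81.7%), Tpm2 (85.2% and 80.8%) and Mylk (96.1% and 90.8%) were lower in hyperoxia, each with overlapping intervals. Those of Actg2 (17.2% and 34.1%) and Cnn1 (5.47% and 9.61%) were higher, with intervals apart for Actg2 and overlapping for Cnn1. After thinning to 2000 UMIs, Acta2 (51.3% and 61.2%), Des (54.6% and 60.2%) and Tagln (62.2% and 70.1%) had overlapping intervals. So did Tpm2 (50.4% and 52.7%), Mylk (77.3% and 82.1%) and Cnn1 (2.52% and 4.48%), which leaves a difference in these genes not detectable at this depth. The median cell held 0.35% of its UMIs in the 10 genes in room air and 0.45% in hyperoxia after thinning to 2000 UMIs, and the upper quartile went from 0.65% to 1.10%. The median smooth muscle-like cell held 4.08% and 5%, and the median cell had 9 of the 10 genes detected in both libraries.

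**Figure D4:**
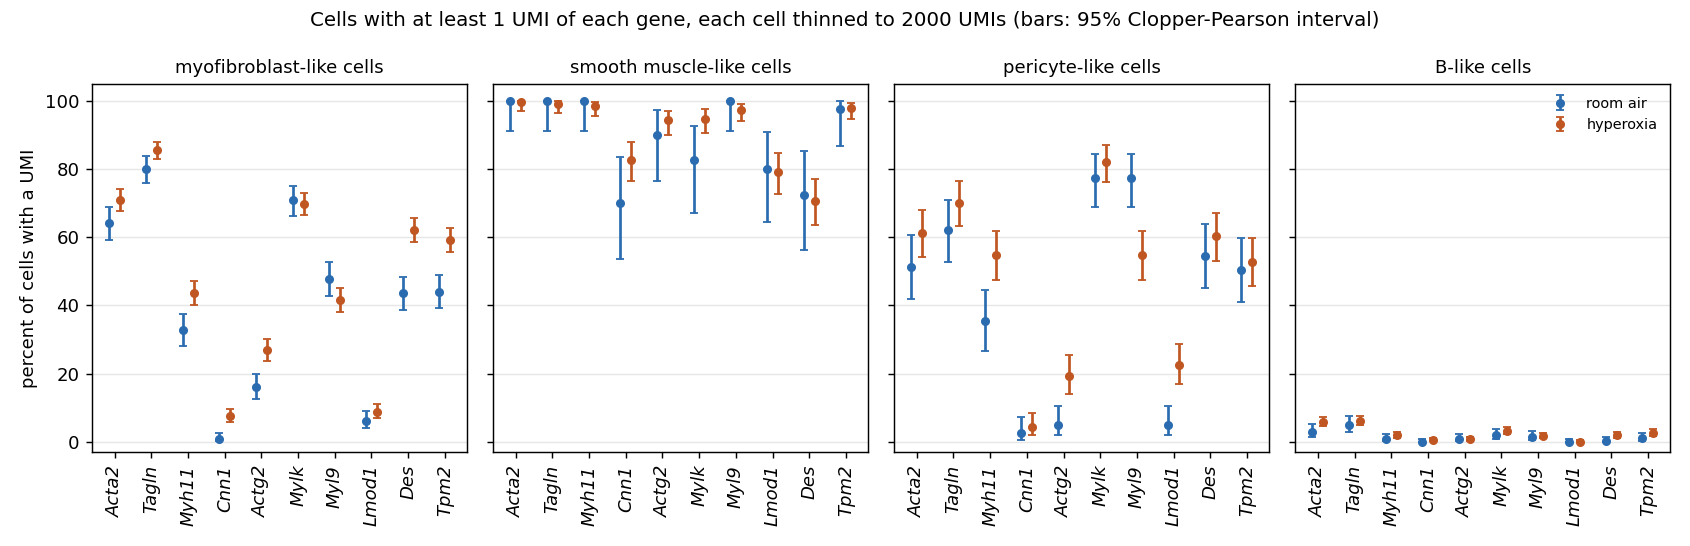
Percent of cells with at least 1 UMI of each gene after thinning each cell to 2000 UMIs, in 3 cell types and in B-like cells as background, with room air in blue, hyperoxia in orange and bars for the 95% Clopper-Pearson interval. The shares of Tpm2 and Des in myofibroblast-like cells and of Myh11 and Lmod1 in pericyte-like cells lie higher in hyperoxia, that of Myl9 in pericyte-like cells lies lower, and B-like cells lie at or below 6.19%.

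The other genes of the contractile programme were read from lists. Of 24 further genes of the contractile apparatus, 20 could be measured in myofibroblast-like cells at a mean of at least 10 CPM, and 16 of these were higher in hyperoxia, with a median log2 ratio of 0.24, where 54.2% of all genes tested were higher. Past 2-fold were Hspb1, a small heat shock protein (71.9 and 192 CPM), and Synm, the intermediate filament protein synemin that pairs with desmin (7.26 and 24.3 CPM). Of the same list, 21 of 24 were higher in smooth muscle-like cells (median 0.23, all genes 50.1%), with Pgm5, a protein of adherens junctions, past 2-fold (32.1 and 78.0 CPM). In pericyte-like cells 12 of 20 were higher (median 0.21, all genes 46.6%) and none passed 2-fold. The list median thus lay above that of all genes in each type and, in myofibroblast-like and pericyte-like cells, below that of the 10 genes.

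Of 15 genes of transcriptional control, 8 of 13 measured were higher in hyperoxia in myofibroblast-like cells, 8 of 15 in smooth muscle-like cells and 9 of 14 in pericyte-like cells, against 54.2%, 50.1% and 46.6% of all genes, so the first 2 counts lay near that background. Myocd, which encodes myocardin, stood at 25.4 and 44.4 CPM in myofibroblast-like cells, a log2 ratio of 0.81 (0.53 to 1.09), at 210 and 299 CPM in smooth muscle-like cells, 0.51 (0.22 to 0.81), and at 5.37 CPM (7 UMIs) and 26.1 CPM (52 UMIs) in pericyte-like cells, 2.28 (1.14 to 3.67). Srf, its partner, stood at 42.5 and 40.4 CPM, 73.7 and 88.0 CPM, and 35.3 and 38.2 CPM, and each interval of its ratio included 0. Past 2-fold in pericyte-like cells were also Gata6 (14.6 and 37.2 CPM) and Hey1 (6.91 and 16.1 CPM), both higher, and Tcf21, a transcription factor of fibroblasts, lower (278 and 125 CPM). The 12 markers of Tcf21 fibroblasts, Tcf21 among them, summed to 2331 and 1413 CPM in the same cells with none at 0, and their part in the result was not tested. Among smooth muscle-like cells Mef2d (45.3 and 92.6 CPM) passed 2-fold, as did Tcf21, on 3 UMIs in room air and 39 in hyperoxia.

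Further lists are read against the same shares of all genes, 54.2%, 50.1% and 46.6% higher in hyperoxia in the 3 types, and several counts lay near them. Of the calcium, channel and cGMP genes, 4 of 9 measured were higher in hyperoxia in myofibroblast-like cells, 9 of 13 in smooth muscle-like cells and 5 of 12 in pericyte-like cells, with Mrvi1, a substrate of cGMP-dependent kinase, past 2-fold in the last (9.21 and 21.6 CPM). Of the receptors and kinases of contraction, 6 of 8, 5 of 8 and 4 of 10 were higher, and Chrm2 in smooth muscle-like cells (166 and 79.8 CPM) and the adrenergic receptor Adra1b in pericyte-like cells (25.3 and 7.04 CPM) were more than 2-fold lower. In room air 79 Chrm2 UMIs lay in the 7 cells of the smaller smooth muscle-like cluster and 9 in the larger cluster. Within these clusters its log2 ratios were -0.68 (-1.10 to -0.26) and 0.19 (-0.85 to 1.41). Of the non-muscle actomyosin genes, which every cell uses, 9 of 12, 9 of 12 and 6 of 12 were higher, with Actn4 past 2-fold in smooth muscle-like cells (230 and 476 CPM). Actb, the ubiquitous cytoplasmic actin, had log2 ratios of -0.13, -0.02 and -0.52, so it did not follow Acta2. Of the striated muscle list, Actc1, the cardiac alpha actin, stood at 4269 and 2952 CPM in smooth muscle-like cells and at 126 and 28.7 CPM in pericyte-like cells, and Tnnt3 at 34.0 and 3.65 CPM in smooth muscle-like cells (18 and 8 UMIs). All measured genes of that list were lower in hyperoxia, 1 in myofibroblast-like, 3 in smooth muscle-like and 1 in pericyte-like cells, so the cardiac and the smooth muscle alpha actin had opposite signs.

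Over the 10 named cell types of both libraries, 20 points in all, the genes whose log2 level was most like the mean of the 10 genes were Lpp, a focal adhesion protein (r = 0.956), Flnc, a filamin (0.955), Galnt16 (0.952), Id4 (0.951) and Synpo2, synaptopodin 2 (0.946), among 7107 genes compared. The points share libraries and cell types and are not independent. Lpp and Synpo2 are also on the list of the contractile apparatus. Lpp stood at 459 and 675 CPM in myofibroblast-like cells, 1610 and 2194 CPM in smooth muscle-like cells and 550 and 680 CPM in pericyte-like cells, higher in hyperoxia in each. Synpo2 stood at 16.3 and 13.5 CPM, 508 and 560 CPM, and 79.8 and 77.4 CPM. Id4, an inhibitor of basic helix-loop-helix factors, stood at 261 and 155 CPM in smooth muscle-like cells, at 33.9 and 30.2 CPM in myofibroblast-like cells and at 74.4 and 72.9 CPM in pericyte-like cells.

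In the other fibroblasts several of the 10 genes were lower in hyperoxia. In Tcf21 fibroblast-like cells (172 and 1029 cells) Acta2 stood at 295 and 114 CPM, a log2 ratio of -1.37 (-1.49 to -1.25), and Myl9 at 234 and 78.7 CPM, -1.57 (-1.71 to -1.43), while 1.79% of 8396 genes were at least 2-fold lower. Mylk, with 1070 and 942 CPM, and Tagln, with 544 and 449 CPM, differed less. Of the 10 genes 6 passed the limit of 10 CPM there, and Myh11, Cnn1, Actg2 and Lmod1 had at most 30 UMIs per library. The clusters of this type were split by library too, with 166 of 172 room air cells in a cluster that held 9 hyperoxia cells. In adventitial fibroblast-like cells (49 and 238 cells) all 10 genes were lower in hyperoxia, where 45.4% of 8659 genes tested were higher. The intervals of Mylk (-0.38 to 0.04) and Des (-0.90 to 0.31) included 0. At least 2-fold lower were 5 of the 10 genes (background 3.43%). In room air 739 of the 1821 UMIs of the 10 genes came from 1 cell.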

How the data were processed

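Single-cell RNA-seq was done on dissociated, perfused lungs, with 1 library of 8 pooled mice per group. The deposited values are raw UMI counts of each gene in each barcode, made by the authors, whole numbers with no normalization, for 27998 genes and the barcodes called as cells (genome mm10). The sources differ on the software, with Cell Ranger 6.1.1 in the protocol, 2.1.1 in the submitters' processing notes and 3.1.0 in the header of the matrices. They differ on the kit version too, which the counts do not settle. The room air library held 4234 barcodes and 39593888 UMIs, and the hyperoxia library 13223 and 111934936.

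Barcodes with fewer than 500 detected genes (345 and 1026) or over 20% mitochondrial UMIs (80 and 486) were left out. Doublets were simulated from random pairs, 2 per cell, and the highest ranked cells were removed at 0.8% per 1000 barcodes (129 and 1239). This share rises with the barcodes of a library, so it was larger in the hyperoxia library, also in the run with double the share. The 2000 most variable genes, without 34 contractile, mitochondrial and sex-linked genes, gave 30 principal components, a graph of 20 neighbours and Leiden clusters at resolution 1 (seed 1), and stromal cells were clustered again. Clusters took the name of the class with the best marker score. A marker counted as raised in at least 5% of cells and 0.5 above the mean of the other clusters (log2 CPM), and a cluster with fewer than 3 raised markers, fewer than 20 cells or more markers of another class among its 10 leading genes stayed unnamed. Of the stromal cells, 21 in room air and 36 in hyperoxia stayed unnamed. The names are rebuilt and may differ from the study's.

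UMIs were summed per type and library and given as CPM with exact Poisson intervals, log2 ratios with exact conditional intervals, and shares with Clopper-Pearson intervals. No test was made, since each group is 1 library. A count of 0 was read as allowing 3 counts. The code for ratios and their intervals was checked on simulated sums with counting error only. Those sums held no spread between cells, so the check cannot tell how the intervals fare with such spread. Python 3.11.15, scikit-learn 1.9.0, igraph 0.11.9 and leidenalg 0.10.2 were used. The alternatives were other resolutions, cell filters, doublet shares, scalings, naming rules and thresholds. Named genes were the 10 members, list genes at least 2-fold apart at a mean of at least 10 CPM, and the 5 genes most alike in log2(CPM + 1). Other genes named, such as Srf, Myocd outside pericyte-like cells, Actb, Ntrk3, Itga8, Hhip, Grem1 and Higd1b, were chosen after their values were seen. The members and lists were chosen with earlier results of these data known.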

Additional observations from a re-analysis of the deposited data

Results flagged for a closer look

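The same contrast had opposite signs in different stromal types for 8 of the 10 genes, with counting intervals on either side of 0, and the difference was not tested, since each group is 1 library. The share of all genes that met the same rule was not counted, so the count of 8 has no background to be read against. For Acta2 the log2 ratios of hyperoxia over room air were 0.55, 0.17 and 0.95 in myofibroblast-like, smooth muscle-like and pericyte-like cells, and -1.37 and -1.57 in Tcf21 fibroblast-like and adventitial fibroblast-like cells. For Tagln they were 0.90, 0.34 and 0.997 against -0.28 and -0.41 in the same order. For Tpm2 they were 0.68, 0.19 and 0.66 against -0.26 and -0.71. Mylk was at 0.25 in smooth muscle-like and 0.19 in pericyte-like cells and at -0.18 in Tcf21 fibroblast-like cells.

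For the other 4 genes the negative values with an interval below 0 lay in adventitial fibroblast-like cells, while Actg2 in Tcf21 fibroblast-like cells was at -0.76 with an interval that included 0 (-1.77 to 0.34). Myh11 was at 0.58, 0.43 and 0.79 in myofibroblast-like, smooth muscle-like and pericyte-like cells and at -3.27 in adventitial fibroblast-like cells. Cnn1 was at 3.07, 0.65 and 0.91 against -2.46, Actg2 at 1.11, 0.19 and 1.33 against -2.19, and Lmod1 at 0.94, 0.36 and 1.05 against -1.54. The adventitial values rest on 49 cells in room air, where the highest cell for each gene gave 156 of 181 Myh11 UMIs, 17 of 23 Cnn1 UMIs, 23 of 41 Actg2 UMIs and 258 of 500 Acta2 UMIs. In Tcf21 fibroblast-like cells the highest cell gave 8.57% of the Acta2 UMIs in room air.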

How the results depend on the processing

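The summed log2 ratio of the 10 genes stayed above 0 in myofibroblast-like and smooth muscle-like cells under all alternatives run, and in pericyte-like cells under all but 1. Values are given for myofibroblast-like, smooth muscle-like and pericyte-like cells in that order where 3 stand together. It was 0.63, 0.33 and 0.27 at clustering resolution 0.5, where Cnn1 in pericyte-like cells turned to -1.69, and 0.62 in myofibroblast-like cells at resolution 2. It was 0.62, 0.19 and 0.65 when contractile genes could enter the clustering, 0.67, 0.17 and 0.64 without doublet removal, and 0.73, 0.25 and 0.41 in cells without UMIs of other lineages, where Myl9 in myofibroblast-like cells turned to 0.040. Keeping cells of 1000 or more genes and up to 10% mitochondrial UMIs, it was 0.25 in smooth muscle-like and 0.64 in pericyte-like cells, with 5 genes 2-fold apart in the latter. With TMM factors it was 0.27 and 0.62 in the same types, with 4 genes 2-fold apart in pericyte-like cells. Without mitochondrial, ribosomal protein and haemoglobin genes it was 0.61 in myofibroblast-like and 0.19 in smooth muscle-like cells, and as a mean over single cells 0.61 and 0.25.

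With double the expected share of doublets removed it was 0.42, 0.64 and -0.32, and 0 genes were 2-fold apart in myofibroblast-like cells and 1 in smooth muscle-like cells. Pericyte-like cells then had Acta2 at -0.31, Tagln at -0.13, Cnn1 at -2.41, Actg2 at -0.70, Tpm2 at -0.20 and a median of -0.17, and Myl9 in smooth muscle-like cells turned to 0.19. That setting left 119 and 149 pericyte-like cells in place of 128 and 229. With each library clustered on its own it was 0.77, 0.61 and 1.22, with 7 genes 2-fold apart in pericyte-like cells, and Myl9 turned to 0.028 in myofibroblast-like and 0.17 in smooth muscle-like cells. The cause of these shifts was not tested.

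Without single clusters, chosen after seeing the data, it was 0.55 in myofibroblast-like cells (without cluster 3), 0.25 in smooth muscle-like cells (without the cluster with Chrm2) and 0.26 in pericyte-like cells (without the cluster with Ntrk3), where 4 genes were 2-fold apart and Cnn1 was at -1.70, on 8 and 3 UMIs. These counts under the alternatives carry no limit on mean level. At 1.5-fold the counts of genes apart were 6, 1 and 8. Without the barcodes found in both libraries no sign changed. No paired analysis was possible because each group has 1 library, and no library could be left out.

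Depth limits Cnn1 and Lmod1 most, with 42 and 165 UMIs in myofibroblast-like and 40 and 88 in pericyte-like cells of room air, and the 42 smooth muscle-like cells of room air. The intervals leave out differences between mice, litters and dissociations, which 1 pooled library per group cannot show. Those of levels and ratios also take each UMI as independent, so they are too narrow where single cells held many of the UMIs.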
